A study of Homo sapiens with 2 samples.

Results

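Described here are 10 genes: the heavy chains ITIH1 to ITIH5 and the light chain AMBP of the inter-alpha-trypsin inhibitor, and 4 genes that work with hyaluronan beside them, HAS2, HAS3, TNFAIP6 and HMMR. They were picked from the measured differences of this same comparison, because ITIH3 had one of its largest negative values, and were then completed by family and function. All of their values are therefore given as a description, without a test. The 10 genes were measured by 19 of 41091 probe sets that name a single gene, and stand among 19775 genes. One further probe set names HAS3 beside UTP4 and was left out.

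The study asked what changes in Huh7 cells, an established human hepatocellular carcinoma line, when CD24 is knocked down. CD24 is a small glycoprotein anchored to the cell surface. One culture had been stably transduced by lentivirus with a short hairpin RNA (shRNA) against CD24, and the other, the control, with a non-target hairpin (NTC). Both were grown in the same serum-containing medium, and the RNA of each culture was read on 1 Affymetrix array. Whether either culture was a pool of cells or 1 clone is not given in the sources used here. With 1 array per group there is no replicate check, and precision is limited by the number of arrays.

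The deposited values were log-scale values already centred on the 2 arrays of each probe set. A probe set therefore has equal and opposite values in the arrays. The values below are differences of the CD24 shRNA array minus the control array, read as log2. The base of the log is not stated, so every fold size and 2-fold count rests on that reading. The level of a transcript is not in the table. The error given is the SD over the probe sets of a gene, which covers how far probe sets disagree but says nothing of variation among cultures. For genes with 1 probe set no SD exists, and the only yardstick is 0.27, the SD among probe sets pooled over the 10523 genes that have several. The hairpin target itself had a mean centred value of -0.68 in the CD24 shRNA array, against 0.68 in the control array. That is a log2 difference of -1.37 ± 0.38 (SD, 6 probe sets), or 2.58-fold lower, with probe sets from -1.97 to -0.95, all of them of a kind that can match several transcripts.

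Inter-alpha-trypsin inhibitors are plasma proteoglycans made by hepatocytes. Heavy chains are joined to bikunin, a small protease inhibitor, through the chondroitin sulfate chain that bikunin carries. In tissues the protein TSG-6 moves heavy chains from this chain onto hyaluronan, a long sugar polymer of the matrix that is spun out by hyaluronan synthases at the cell surface and bound by receptors and by matrix proteoglycans.

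Among the 10 genes, 3 were at least 2-fold lower in the CD24 shRNA array, ITIH3, HMMR and ITIH1, and 0 were at least 2-fold higher. Of all genes, 0.485% were at least 2-fold lower and 0.632% at least 2-fold higher. With the arrays scaled on the hybridisation controls, which adds 0.11 to every difference, 67 genes were at least 2-fold lower and 181 higher, in place of 96 and 125, and the same 3 members were at least 2-fold lower. Since the list was built around a large negative value, its count cannot be read against that share. ITIH2 was the only other member past 1.5-fold, a mark that 2.38% of all genes passed downward and 2.63% upward. The remaining 6 genes lay between -0.44 and 0.21. By gene, 9 of the 10 differences were below 0, though ITIH4, ITIH5, AMBP and TNFAIP6 lay between 0.02 and 0.08 under that scaling. The median of the 10 was -0.26, beside 47.5% of all genes below 0 and a median of 0. By probe set, 14 of 19 were below 0.

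**Figure D1:**
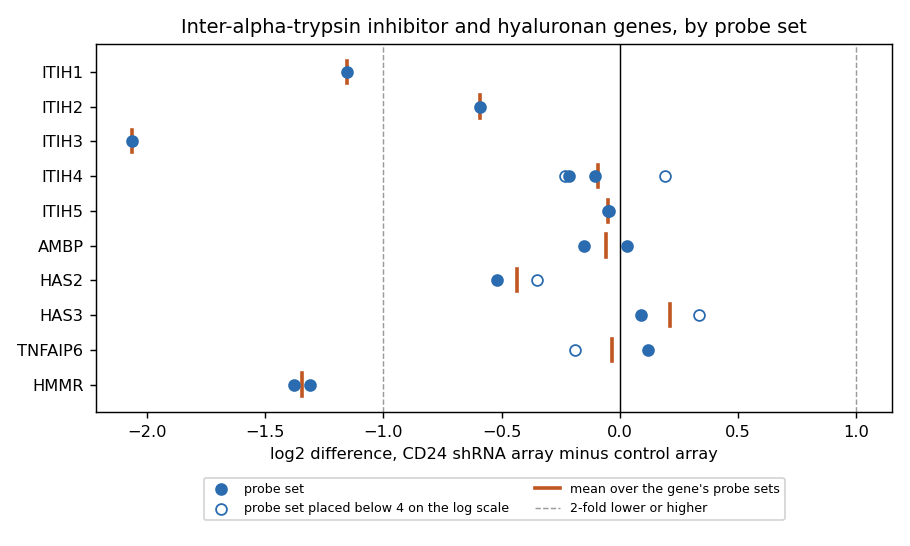
Log2 difference (CD24 shRNA array minus control array, x axis) of every probe set of the 10 genes (rows). Points are probe sets, open where the digits of the file place their mean below 4 on the log scale. Filled points include probe sets that could not be placed, among them those of ITIH1, ITIH2 and ITIH3. Red bars are gene means and dashed lines mark 2-fold. ITIH3, HMMR and ITIH1 lie past the lower line at -2.06, -1.34 and -1.15, and the probe sets of ITIH4, AMBP and TNFAIP6 fall on both sides of 0.

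ITIH3, a heavy chain of the plasma inhibitor, was the lowest of the 10. Its single probe set had a centred value of -1.03 in the CD24 shRNA array, against 1.03 in the control array. The log2 difference of -2.06 is 4.18-fold lower and holds place 3 from the bottom of 19775 genes. The genes next to it in that order were SLC6A14, an amino acid transporter, at -2.56 and DDIT4, an inhibitor of mTORC1, at -2.19 on one side. On the other side came THBS4, a thrombospondin, at -2.02, the phospholipase PLA1A at -1.97 and SERPINA3, alpha-1-antichymotrypsin, at -1.95. Each of these 5 was also measured by 1 probe set. With a single difference per gene, nearness in this order is the only likeness that can be given.

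ITIH1, which pairs with ITIH2 and bikunin in the main plasma form, was 2.23-fold lower. Its single probe set had a centred value of -0.58 in the CD24 shRNA array, against 0.58 in the control array, a log2 difference of -1.15. That probe set has a name ending in _s_at, so it can match more than 1 transcript, and it is the only probe set that names ITIH1 alone. ITIH2, the partner chain, had -0.30 in the CD24 shRNA array and 0.30 in the control array on its single probe set. Its difference of -0.59 is 1.51-fold lower. ITIH1 and ITIH2 lay 0.56 apart, about 2.09 times the pooled SD between probe sets. That SD is of single probe sets, and a gap between 2 of them spreads more widely.

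ITIH4, a heavy chain family member that circulates without bikunin and is known as an acute-phase protein, lay near 0. Its 4 probe sets had differences of -0.23, -0.21, -0.10 and 0.19, with a mean of -0.09 ± 0.19 (SD). The mean centred value was -0.05 in the CD24 shRNA array, against 0.05 in the control array, so the gene's difference is smaller than the disagreement among its probe sets. The outermost of these, at -0.23 and 0.19, are also those that the digits of the file place below 4 on the log scale. That class holds 8209 of the 13352 probe sets that could be placed, so it marks most of them and not an exceptional few. The probe sets of ITIH1, ITIH2, ITIH3 and ITIH5 could not be placed, so their level is not known. ITIH5, a heavy chain family member found mainly outside the liver, had -0.02 in the CD24 shRNA array and 0.02 in the control array, a difference of -0.05 ± 0.0046 (SD, 2 probe sets). All 5 heavy chains were thus below 0, but ITIH4 and ITIH5 by less than the pooled SD, and these lay at 0.02 and 0.06 when scaled on the hybridisation controls.

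Windows around transcript starts of 3 of these genes and of HMMR are shown. ITIH3, ITIH1 and HMMR were the members past 2-fold, and ITIH4 is the neighbour of ITIH3 and ITIH1 that was not. The windows are from RefSeq, GRCh38.p14, and run from 250 bases before to 50 after a transcript start, on the strand of the gene. The ITIH3 window lies at chr3:52794546-52794845 (plus strand). ITIH1 has 3 windows in the table, all on the plus strand. Such windows can belong to alternative starts inside the gene, and none was checked to be the main upstream region of ITIH1. Those at chr3:52778236-52778535 (ITIH1 first) and chr3:52779671-52779970 (ITIH1 second) are shown, and the remaining one, chr3:52779676-52779975, overlaps the second almost wholly. The ITIH4 window lies at chr3:52830623-52830922 (minus strand) and that of HMMR at chr5:163460382-163460681 (plus strand). Capitals mark the motif matches described below, and windows with none are in lower case throughout.
ITIH3: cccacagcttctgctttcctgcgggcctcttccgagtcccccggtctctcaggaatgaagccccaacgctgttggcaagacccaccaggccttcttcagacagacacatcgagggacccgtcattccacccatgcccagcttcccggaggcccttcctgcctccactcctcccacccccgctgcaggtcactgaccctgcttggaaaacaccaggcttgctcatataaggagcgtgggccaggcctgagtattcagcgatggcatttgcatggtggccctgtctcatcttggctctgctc
ITIH1 first: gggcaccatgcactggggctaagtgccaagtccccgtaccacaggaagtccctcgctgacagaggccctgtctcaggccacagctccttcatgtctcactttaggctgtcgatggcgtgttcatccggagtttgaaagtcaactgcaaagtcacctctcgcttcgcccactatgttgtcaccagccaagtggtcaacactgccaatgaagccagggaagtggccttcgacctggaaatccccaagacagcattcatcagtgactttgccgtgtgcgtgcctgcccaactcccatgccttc
ITIH1 second: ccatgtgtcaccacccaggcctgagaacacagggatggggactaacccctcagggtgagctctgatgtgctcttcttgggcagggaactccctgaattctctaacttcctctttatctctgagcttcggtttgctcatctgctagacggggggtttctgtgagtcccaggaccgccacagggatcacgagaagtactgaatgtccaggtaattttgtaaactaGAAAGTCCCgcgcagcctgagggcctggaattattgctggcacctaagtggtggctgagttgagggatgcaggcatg
ITIH4: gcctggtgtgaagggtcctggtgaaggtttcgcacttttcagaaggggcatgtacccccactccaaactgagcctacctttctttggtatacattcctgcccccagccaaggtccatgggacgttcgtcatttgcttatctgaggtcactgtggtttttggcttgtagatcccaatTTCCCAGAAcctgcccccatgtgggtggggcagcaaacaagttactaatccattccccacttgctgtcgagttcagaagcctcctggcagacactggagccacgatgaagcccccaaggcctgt
HMMR: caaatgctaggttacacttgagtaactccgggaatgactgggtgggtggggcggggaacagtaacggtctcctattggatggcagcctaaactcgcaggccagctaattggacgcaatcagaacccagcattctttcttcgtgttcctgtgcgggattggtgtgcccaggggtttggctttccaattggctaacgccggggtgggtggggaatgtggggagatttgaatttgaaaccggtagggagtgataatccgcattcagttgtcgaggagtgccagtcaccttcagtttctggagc

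Of the 10 genes, 8 had a window in the table, 10 windows in all. Each was searched on both strands for the letters of 7 motifs, most of them sites of liver and acute-phase factors. ITIH4 held 1 match to the STAT letters TTCNNNGAA, at position -74 from the start, a match that 7.66% of all 35116 windows hold. The second ITIH1 window held GGGACTTTC, an NF-kB sequence found in 0.387% of all windows, on the opposite strand. The match lay at position -27 from the transcript start of that window, which may not be the main start of ITIH1. The ITIH1 window that overlaps the second holds the same match. The windows of ITIH3, HMMR, AMBP and ITIH5 and the first ITIH1 window held none of the motifs searched. The other motifs were TTGCNNNAA for C/EBP (9.21% of all windows), CAAAGTCCA for HNF4 (0.384%), GTTAAT, which is part of the HNF1 site (6.88%), the E-box CACGTG (7.26%) and TATAAA (11.5%). GTTAAT occurred in the TNFAIP6 window at position -187 and CACGTG in the HAS3 window at position -66. These are matches of letters only.

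ITIH1, ITIH3 and ITIH4 are neighbours on chromosome 3, and ITIH5 and ITIH2 on chromosome 10, so the genes beside them were also read. In the order of the RefSeq gene table, the 10 protein-coding genes on each side of ITIH1 to ITIH4 included 16 with a value. Those 16 ranged from -0.41 ± 0.43 (SD, 3 probe sets) for TKT, transketolase, to 0.43 ± 0.26 (SD, 2 probe sets) for SFMBT1. Their median was -0.0039, and 0 of them passed 1.5-fold, beside 2.38% of all genes lower and 2.63% higher. NEK4, a kinase gene directly before ITIH1, lay at -0.13 ± 0.16 (SD, 2 probe sets). STIMATE, the nearest measured gene after ITIH4, lay at -0.14 ± 0.41 (SD, 2 probe sets). By gene mean, the large negative values in this stretch were thus those of ITIH1 and ITIH3, while ITIH4 had a value like its flanks. ITIH1 and ITIH3 rest on 1 probe set each, whereas most flanking genes are means over several, which can draw values towards 0. With the largest probe set per gene, 8 flanking genes of chromosomes 3 and 10 together passed 1.5-fold, against 2.

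On chromosome 10 all 20 flanking genes had a value, with a median of -0.03. ECHDC3, an enoyl-CoA hydratase family gene, was lower at -0.83 and PFKFB3, a regulator of glycolysis, higher at 0.67, each on 1 probe set and each past 1.5-fold. KIN, directly after ITIH2, lay at -0.37 ± 0.38 (SD, 3 probe sets), and SFMBT2, directly before ITIH5, at -0.09 ± 0.07 (SD, 2 probe sets). ITIH2 at -0.59 was therefore not the lowest gene of its stretch.

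**Figure D2:**
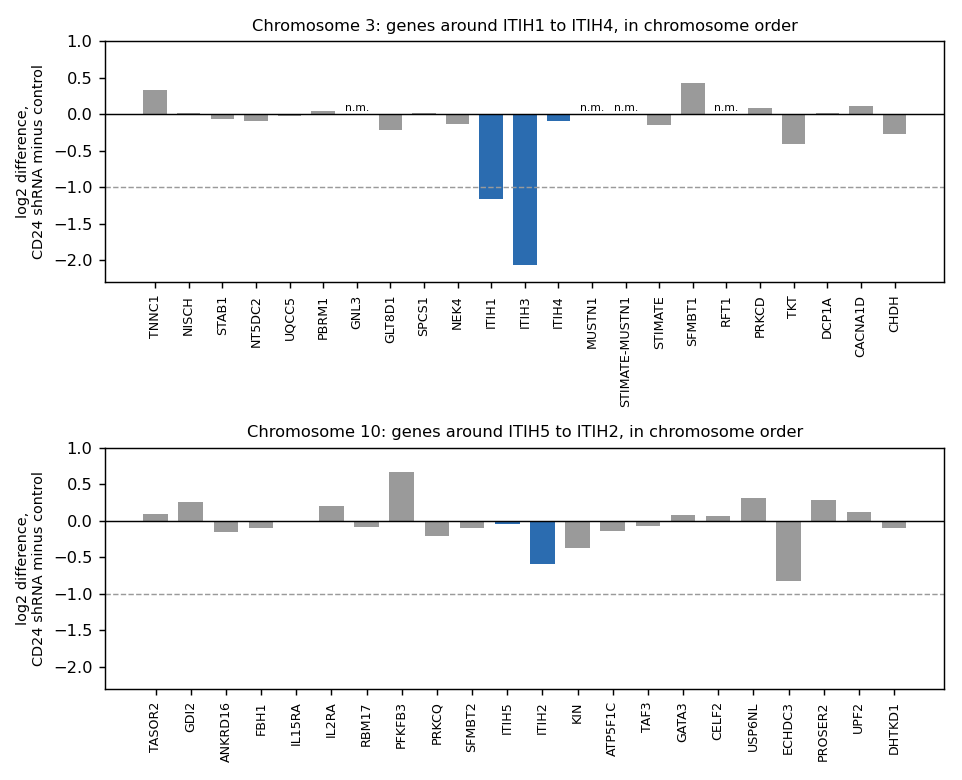
Log2 difference (y axis, CD24 shRNA minus control, mean over probe sets) of the heavy chain genes (blue) and the 10 protein-coding genes on each side (grey), in chromosome order with no distances. The dashed line marks 2-fold lower and n.m. marks genes with no probe set of their own. ITIH1 and ITIH3 pass the dashed line, and the 16 measured flanking genes of chromosome 3 lie between -0.41 and 0.43.

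AMBP encodes one precursor that is cut into bikunin and alpha-1-microglobulin, a small heme-binding lipocalin. Its 2 probe sets had differences of -0.15 and 0.03, a mean of -0.06 ± 0.13 (SD). The mean centred value was -0.03 in the CD24 shRNA array, against 0.03 in the control array. The light chain thus showed no difference beyond the disagreement of its probe sets, beside ITIH3 and ITIH1 at -2.06 and -1.15.

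HAS2 encodes a hyaluronan synthase. Its 2 probe sets had differences of -0.52 and -0.35, a mean of -0.44 ± 0.12 (SD), or 1.35-fold lower, and the probe set at -0.35 was placed below 4. The mean centred value was -0.22 in the CD24 shRNA array and 0.22 in the control array. HAS3, another synthase, was on the other side of 0, with a mean centred value of 0.11 in the CD24 shRNA array and -0.11 in the control array. Its 2 probe sets lay at 0.34 and 0.09, a mean of 0.21 ± 0.18 (SD), and the one at 0.34 was placed below 4. TNFAIP6 encodes TSG-6, which transfers heavy chains to hyaluronan. Its 2 probe sets lay at -0.19 and 0.12, a mean of -0.04 ± 0.22 (SD), both with names that allow matches to several transcripts. Its mean centred value was -0.02 in the CD24 shRNA array and 0.02 in the control array, and the probe set at -0.19 was placed below 4. HAS2, HAS3 and TNFAIP6 each thus have 1 of 2 probe sets placed below 4.

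HMMR encodes RHAMM, which binds hyaluronan at the cell surface and is also a protein of the mitotic spindle. Its 2 probe sets had centred values of -0.69 and -0.65 in the CD24 shRNA array, against 0.69 and 0.65 in the control array. Their differences of -1.38 and -1.31 gave a mean of -1.34 ± 0.05 (SD), 2.54-fold lower, at place 31 from the bottom of all genes. Of the 3 members past 2-fold, HMMR was the only one with more than 1 probe set. The probe set at -1.31 has its mean placed between 4 and 8. The nearest protein-coding genes, NUDCD2 before it at -0.03 ± 0.23 (SD, 3 probe sets) and MAT2B after it at 0.20 ± 0.12 (SD, 2 probe sets), lay near 0. HMMR-AS1, the antisense gene of this locus, had a centred value of 0 in both arrays on its single probe set. That is a tie, as in 3273 of the 54675 probe sets, and says nothing of the level of the transcript. NUDCD2, MAT2B and HMMR-AS1 were chosen after the values were seen.

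HMMR transcripts usually accompany those of dividing cells, so a list of 30 genes of mitosis was read beside it. All 30 were measured, 15 below and 15 above 0, with a median of 0.0004. Past 1.5-fold were 0 in either direction, beside 2.38% of all genes lower and 2.63% higher, so 0 of 30 is near those shares. The lowest was NUSAP1, a spindle-associated protein, at -0.57 ± 0.45 (SD, 2 probe sets), followed by TOP2A, a topoisomerase, at -0.43 ± 0.26 (SD, 3 probe sets) and AURKB, a mitotic kinase, at -0.38 ± 0.26 (SD, 2 probe sets). The highest was KIF23, a kinesin of cell division, at 0.46 ± 0.23 (SD, 2 probe sets). MKI67, the proliferation marker, lay at 0.19 ± 0.35 (SD, 4 probe sets), and TPX2, a spindle assembly factor, at 0.29 on 1 probe set. HMMR at -1.34 lay below all 30.

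**Figure D3:**
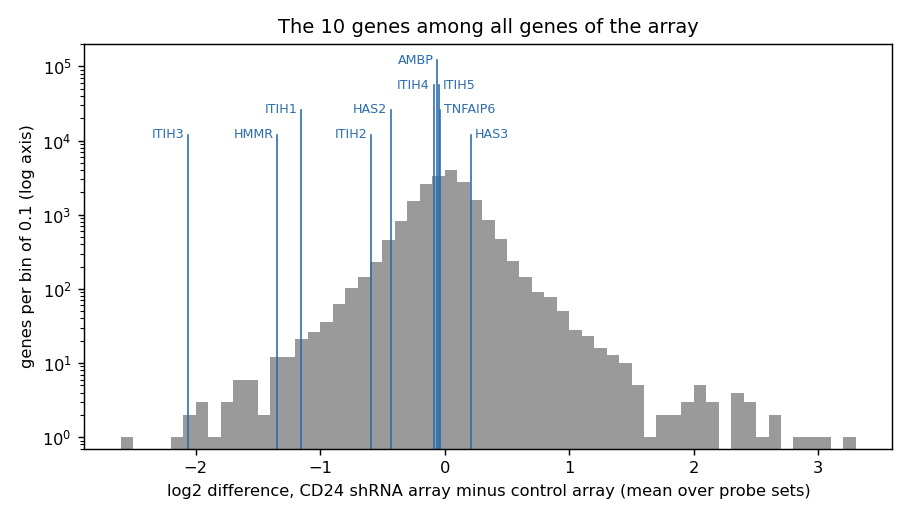
Number of genes (y axis, log scale) by log2 difference (x axis, CD24 shRNA minus control, bins of 0.1) for all 19775 genes, with the 10 described genes as blue lines. ITIH3, HMMR and ITIH1 stand in the lower tail at -2.06, -1.34 and -1.15, ITIH2 and HAS2 on its shoulder at -0.59 and -0.44, and the other 5 near the centre.

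In order from the lowest, the 10 genes were ITIH3, HMMR, ITIH1, ITIH2, HAS2, ITIH4, AMBP, ITIH5, TNFAIP6 and HAS3. Neighbours in that order differed by more than the pooled SD of 0.27 between ITIH3 and HMMR (0.72), between ITIH1 and ITIH2 (0.56) and between HAS2 and ITIH4 (0.35). The gap between HMMR and ITIH1 was 0.19, and those from ITIH4 to TNFAIP6 were 0.03 or less, within that SD. The pooled SD describes single probe sets within a gene and not gaps between genes, so it is a rough yardstick here.

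The other genes of hyaluronan synthesis, turnover and binding were centred on 0. Of 28 listed genes 26 were measured, 12 below and 14 above 0, with a median of 0.01. Past 2-fold was VCAN alone, which encodes versican, a large matrix proteoglycan that binds hyaluronan. Its 5 probe sets had centred values from 0.90 to 1.06 in the CD24 shRNA array, against -1.06 to -0.90 in the control array. The mean log2 difference was 2.04 ± 0.13 (SD), 4.11-fold higher, and 4 of the 5 probe sets had a mean placed between 4 and 8. All 5 have names that allow matches to several transcripts. UGP2, which makes the UDP-glucose from which hyaluronan precursors derive, was 1.58-fold higher (0.66 ± 0.15, SD, 2 probe sets). HABP2, a plasma protease that binds hyaluronan, was 1.53-fold lower on 1 probe set, at -0.62. CD44, the main hyaluronan receptor, had 0.17 ± 0.21 (SD, 13 probe sets), within the disagreement of its probe sets. CEMIP2, a cell surface hyaluronidase, lay at 0.45 on 1 probe set, PTX3, a pentraxin that binds heavy chains in the hyaluronan matrix, at -0.35, and ITIH6, a further member of the heavy chain family, at -0.04, each also on 1 probe set.

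Bikunin needs a chondroitin sulfate chain to carry heavy chains, and 18 genes of that chain's synthesis were all measured. Of these, 11 lay below and 7 above 0, with a median of -0.06 and 0 past 1.5-fold lower (2.38% of all genes). CHSY3, a chondroitin synthase, was 2.64-fold higher on 1 probe set, at 1.40. CSGALNACT1, which starts the chain, was 1.98-fold higher on average, at 0.99 ± 1.26 (SD), but its 2 probe sets disagreed at 1.87 and 0.10. CHST15, a sulfotransferase, lay at 0.54 ± 0.56 (SD, 2 probe sets) and FAM20B, the xylose kinase of the linkage region, at -0.51 ± 0.31 (SD, 2 probe sets).

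Bikunin belongs to the Kunitz inhibitors, of which 10 of 12 listed genes were measured, 5 on each side of 0, with a median of 0.02. TFPI2, a Kunitz inhibitor of the extracellular matrix, was 2.25-fold higher (1.17 ± 0.02, SD, 2 probe sets, 1 placed below 4). TFPI, tissue factor pathway inhibitor, was 1.66-fold lower (-0.73 ± 0.05, SD, 5 probe sets, all below 0). SPINT2 lay at 0.47 and WFIKKN1 at -0.40. Alpha-1-microglobulin is a lipocalin, and 16 of 18 listed lipocalin genes were measured, 11 below and 5 above 0, with a median of -0.14. The 4 past 1.5-fold were all lower: APOM, an apolipoprotein, at -0.86 ± 0.004 (SD, 2 probe sets), LCN2, a siderophore-binding protein, at -0.86, the plasma glycoprotein ORM1 at -0.62 and LCN10 at -0.60, the last 3 on 1 probe set each. Of all genes, 2.38% were at least 1.5-fold lower and 2.63% higher.

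**Figure D4:**
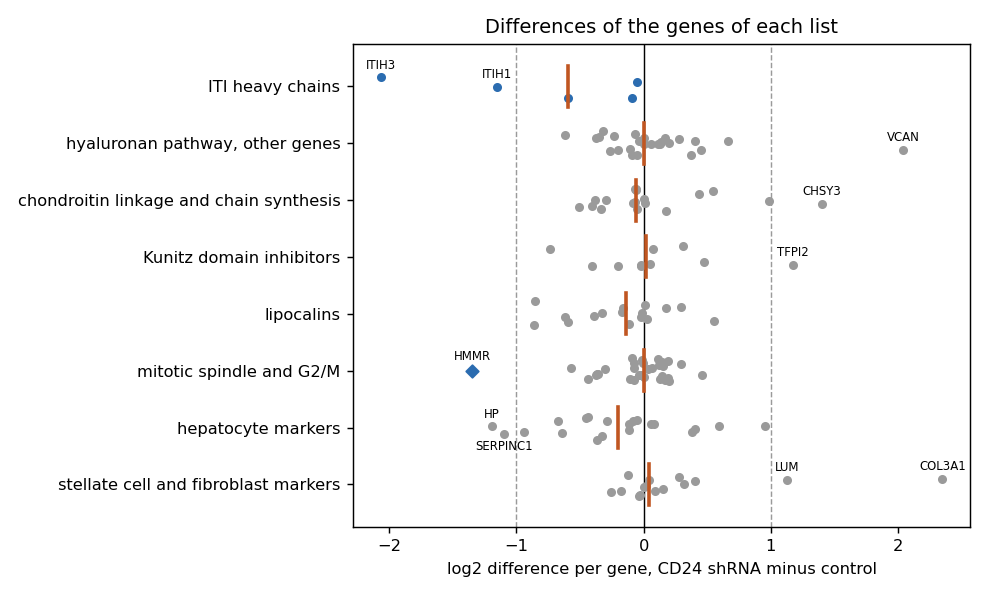
Log2 difference (x axis, CD24 shRNA minus control, mean over probe sets) of the genes of each list (rows, points spread vertically for sight only), with the list median as a red bar, dashed lines at 2-fold and names for genes past it. HMMR is drawn as a diamond on the mitosis row and is not in that row's median. HMMR lies at -1.34 outside the mitosis genes, which span -0.57 to 0.46, and VCAN at 2.04 stands alone among the other hyaluronan genes.

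Apart from ITIH5, found mainly outside the liver, the heavy and light chains are hepatocyte products, so hepatocyte genes were read in the same arrays. Of 20 hepatocyte markers, all measured, 14 lay below and 6 above 0. Past 1.5-fold were 5 lower (2.38% of all genes) and 2 higher (2.63%), and the median was -0.20. That median was -0.45 with the largest probe set per gene and -0.09 scaled on the hybridisation controls. HP, haptoglobin, and SERPINC1, antithrombin, were at least 2-fold lower, at -1.19 (1 probe set) and -1.09 ± 0.23 (SD, 2 probe sets), and AHSG, fetuin-A, lay at -0.94 ± 0.13 (SD, 2 probe sets), while CPS1, a urea cycle enzyme, was 1.94-fold higher (0.96 ± 0.42, SD, 2 probe sets). ITIH3 lay below all 20, ITIH1 lay within their range, and AMBP and ITIH4 lay above their median. Of the 44 probe sets of these markers, 13 could be placed on the log scale: 7 at 8 or above, 5 between 4 and 8 and 1 below 4. The placed ones were thus mostly at 4 or above, whereas 8209 of all 13352 placed probe sets lay below 4. The other 31 were not placed, so the level of the list as a whole is not known. Fewer transcripts per cell and fewer cells making a transcript cannot be told apart in such bulk RNA.

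Markers of other cell types were read because VCAN and matrix genes are also abundant in stromal cells. Both samples are labelled as the Huh7 line alone, and no other cell type is named for them. Of 15 stellate cell and fibroblast markers, 9 lay above and 5 below 0, with a median of 0.04. The list's mean was 0.28, and its median was 0.30 with the largest probe set per gene, 0.13 with the median over probe sets and 0.15 scaled on the hybridisation controls. Past 2-fold were COL3A1, a fibrillar collagen, at 2.35 ± 1.77 (SD, 5 probe sets, 4 placed below 4) and LUM, lumican, at 1.12 ± 1.41 (SD, 2 probe sets). The probe sets of COL3A1 were split, at 3.78, 3.67 and 3.41 against 0.77 and 0.11. Those of LUM lay at 2.12 and 0.13. ACTA2, smooth muscle actin, followed at 0.40 ± 0.52 (SD, 3 probe sets) and FAP, a surface protease of activated fibroblasts, at 0.32 on 1 probe set. The other 11 lay between -0.26 for DES and 0.28 for COL1A2. The summed level of these markers in each array cannot be given from centred values, and their part in the VCAN value was not tested. Endothelial markers had a median of -0.08 over 12 genes with 0 past 1.5-fold (2.38% of all genes lower, 2.63% higher). Leukocyte markers had a median of 0.09 over 10 genes, with LYZ, lysozyme, at -1.68 ± 0.15 (SD, 2 probe sets). Cholangiocyte markers had a median of 0.04 over 8 genes, with TFF1, a trefoil factor, at -1.04 on 1 probe set, SOX9 at -0.79 ± 0.15 and KRT19 at 0.63 ± 0.34 (SD, 2 probe sets each).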

How the data were processed

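The authors deposited 1 table with a column per array and 54675 probe sets. Its values are read as log2 values, made by RMA per the submitters' processing notes; no source used here gives the software, its version or later steps. Each deposited pair of values sums to 0 within 1e-06, so only differences are left. The table does not name the base of the log.

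Genes came from GEO's platform annotation: 41091 probe sets with 1 symbol were used, 1801 with several and 11721 unnamed ones were not, nor were 62 controls. The Entrez IDs of 41037 matched GRCh38.p14, which changed 0 symbols. A gene was given the average of its probe sets' differences, CD24 shRNA minus control (pandas 2.3.3, numpy 2.4.6), and higher or lower is counted at 2-fold. With 1 array per group no test was run. The gene summary was run on simulated probe sets with known differences and independent noise. That checks the averaging only and says nothing of variation among arrays or cultures.

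A level class came from the digits. Where the sum of a row's values is not exactly 0, it is 1 rounding step of the row's mean, whose size depends on whether the mean is below 4, between 4 and 8 or at least 8. This placed 24.4% of probe sets. Of 56 ribosomal protein probe sets that could be placed, 39 lay at 8 or above, 9 between 4 and 8 and 8 below 4. Olfactory and taste receptors had 38 of 38 below 4.

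The members and lists were chosen with earlier results of these data known. Named are all members, CD24, up to 4 of the largest differences per list and genes past 2-fold, the genes ranked beside ITIH3 and the flanking genes past 1.5-fold or nearest. MKI67, TPX2, ITIH6, PTX3, CD44, TKT, SFMBT1, DES, COL1A2 and the genes beside HMMR were added once their values had been seen. No protein sequences were used here. Alternatives changed how probe sets are combined or left out, the scaling, the threshold, the list summary and the log base.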

Additional observations from a re-analysis of the deposited data

How the results depend on the processing

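No paired analysis was possible because each group holds 1 array. ITIH1, ITIH2 and ITIH3 have 1 probe set each, so combining probe sets another way cannot move them, and scaling on the median changes nothing because it is 0. The sign of a member turned 5 times: for ITIH4, ITIH5, AMBP and TNFAIP6 when scaled on the hybridisation controls, and for TNFAIP6, at 0.12, without probe sets placed below 4. With multiply matching probe sets left out, ITIH1 and TNFAIP6 had no value, 2 members were at least 2-fold lower, the heavy chain median was -0.32, and 1 flanking gene passed 1.5-fold. With the largest probe set per gene, 8 flanking genes passed 1.5-fold, against 2, and 209 genes of the array were at least 2-fold lower and 303 higher, against 96 and 125. At 1.5-fold those counts were 470 and 521, and at 3-fold 17 and 32, with 1 member, ITIH3. Scaling on the 18 hybridisation controls adds 0.11 to every difference and turned the split to 67 lower and 181 higher. It also put the chondroitin and endothelial medians at 0.05 and 0.04. The list mean was on the other side of 0 from the median for chondroitin (0.07), mitosis (-0.02), leukocyte (-0.12) and cholangiocyte genes (-0.11). The median also turned for hyaluronan genes (-0.06), Kunitz inhibitors (-0.02) and mitosis genes (-0.0033) with multiply matching probe sets left out. It turned for Kunitz inhibitors (-0.02) with the largest probe set, and for these (-0.02) and mitosis genes (-0.0069) without probe sets placed below 4. The log base is not stated, and only 1.68% of placed probe sets lie at 8 or above. Read as natural logarithms, an alternative chosen after seeing the data, ITIH3 would be 7.86-fold, HMMR 3.83-fold and ITIH1 3.17-fold lower, 304 and 356 genes would pass 2-fold and 4 flanking genes 1.5-fold. That reading enlarges every difference by the same factor, so it cannot take a gene back below 2-fold.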
